A study of Mus musculus with 15 samples.

Results

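Alveolar luminal cells (AL) of the mouse mammary gland at midgestation were compared here with luminal progenitors (LP) of the virgin gland, over 3 AL and 3 LP arrays out of 15 arrays of 5 populations. The remaining arrays held mammary stem cell enriched basal cells (MaSC), mature luminal cells (ML) and marked virgin cells called alveolar luminal stem/progenitor cells (ALP). All animals were adult C57BL/6 females. The LP cells came from 3 suspensions of virgin wildtype glands and were sorted as lineage negative, CD24 high, CD29 positive (CD29 low where the study describes luminal subsets) and CD61 positive, where CD61 is the product of Itgb3. The AL cells came from Wap-Cre;R26Y females at midgestation and were sorted as lineage negative cells with yellow fluorescent protein, with no CD24, CD29 or CD61 gate named. In these mice Cre is driven by the promoter of whey acidic protein (Wap), a milk protein gene, and it switches on a conditional reporter that all descendants keep. The 2 populations thus differed in pregnancy, genotype and gate at once, which cannot be told apart in this comparison, while ALP cells carried the same alleles in virgin animals. Whether the 3 AL arrays came from separate animals was not stated, so the p-values measure the spread between arrays. That spread was pooled over the arrays of all 5 populations, so a gene uneven in ALP or MaSC has a wide SE here too.

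During pregnancy, progesterone and prolactin drive the outgrowth of alveoli from the ducts. Progesterone acts on the minority of luminal cells that carry its receptor, which signal to their neighbours through secreted factors such as RANKL, the product of Tnfsf11. Prolactin acts through Jak2 and Stat5, and the progeny cells divide, take up and make fat and sugar, and switch on milk protein genes in an order that runs through gestation. Luminal progenitors are the proliferative, hormone receptor poor luminal cells held to give rise to alveoli, and in the virgin gland they already make low amounts of some milk proteins.

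Values are intensities of Affymetrix probe sets as normalised by the authors with dChip, 1 probe set per gene, and differences are on the log2 scale with intensities below 1 set to 1. Of 12143 genes tested with limma over all 15 arrays, 2591 (21.3%) were higher in AL than in LP and 2938 (24.2%) were lower at an adjusted p under 0.05. Counts of list members below are to be read beside these shares of 21.3% and 24.2%. A fit to the AL and LP arrays alone passed 7032 genes in either direction, and a fit without the ALP arrays 6159. Changes of at least 2-fold were made by 1190 (9.8%) and 1106 (9.11%) of the genes. Every AL array lay above every LP array for 3976 genes (32.7%) and below for 4326 (35.6%). The median difference of all genes was -0.03. Centring the arrays on their medians moved it to 0.07 and the share of higher genes among those that passed from 46.9% to 60.1%, so that uniform shifts of about 0.1 depend on the scaling. Pearson correlations across genes were 0.984 to 0.989 between AL arrays, 0.976 to 0.986 between LP arrays and 0.850 to 0.869 between AL and LP. Array medians ran from 147 to 158 in AL and from 158 to 166 in LP, and a value below them is called dim here. One ALP array, replicate 3, stood apart with a leukocyte marker sum of 140868 against 7791 in the lowest ALP array, and ALP values are therefore given per array.

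**Figure D1:**
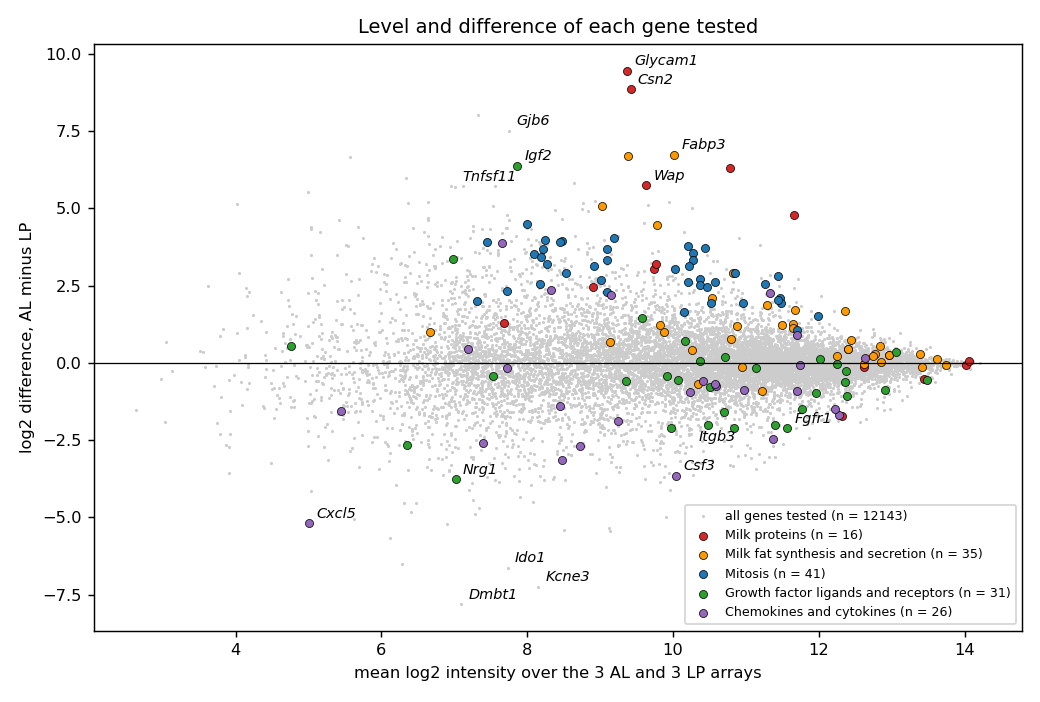
Each point is a gene, placed by its mean log2 intensity over the 3 AL and 3 LP arrays and by its log2 difference, with 5 lists in colour. All 41 mitosis genes lie above 0, and the milk protein genes lie on both sides of it, most of them above. Kcne3, Dmbt1 and Ido1 lie lowest.

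The population labels were set against defining transcripts. The luminal keratin gene Krt8 measured 14067, 14925 and 15029.6 on the AL arrays and 15279, 16476 and 15754 on the LP arrays. These are pools of sorted cells, in which fewer cells of a type and less RNA per cell cannot be told apart. Itgb3, whose product was used to sort LP, measured 3343, 3209 and 2794 in LP and 539, 499 and 407 in AL, a 6.49-fold lower level (log2 difference -2.70, SE 0.22, adjusted p = 4.3e-06). Since LP was gated on this protein and AL was not, this gene is no independent result. The reporter's own promoter gene, Wap, measured 4811, 8717 and 4648 in AL, 82.5, 105 and 146 in LP and 98.6, 62.1 and 39.4 in ALP. The marked virgin samples thus overlapped unmarked progenitors, while AL exceeded LP 53.6-fold (log2 difference 5.74, SE 0.35, adjusted p = 6.7e-07). AL was sorted on a reporter switched on through this promoter, so Wap is no independent result either. It is still counted among the milk protein genes below.

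Milk protein genes split into those that rose, those that did not pass and those that fell. Of 16 tested, 8 rose, 2 fell and 6 did not pass, with a median difference of 1.86. Casein genes encode the micelle proteins of milk. Csn2 (beta-casein) measured 14252, 15065 and 14805 in AL and 37.9, 6.27 and 136 in LP. All LP values of Csn2 were dim, and the fold of 462 (log2 difference 8.85, SE 1.04, adjusted p = 5.3e-05) came to 259.7 with 16 added to each intensity before the log. Csn1s1 measured 14886, 16126 and 15939 in AL and 221, 160.1 and 222 in LP (78.7-fold, adjusted p = 6.7e-07), and Csn1s2a 16577, 17193 and 17281 against 485, 671 and 713 (27.7-fold, adjusted p = 3e-06). Glycam1, a mucin-like protein of milk, showed the widest gap, with 16456, 18575 and 17629.8 in AL and 32.2, 26.8 and 18.1 in LP (701-fold, 425-fold with 16 added, adjusted p = 0.00064). The AL arrays agreed closely for these genes, and no AL value overlapped an LP value. These AL values lay not far below the AL array maxima of 20616 to 21167, where differences between arrays could go unseen. On the ALP arrays Glycam1 ran over 6697, 27 and 1022 and Csn2 over 1198, 97.1 and 425, so the virgin marked samples differed widely among themselves, as the dim LP values of Csn2 also did.

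The promoters of these genes are shown because Stat5, the factor activated by prolactin, binds the palindrome TTCNNNGAA, which reads the same on both strands. The sequences are the 250 bases before the annotated start from RefSeq on GRCm38.p6, in the direction of transcription, with matches to that motif in capitals. They lie at chr5:87699426-87699675 (minus strand), chr5:87665958-87666207 (plus strand), chr15:103565082-103565331 (minus strand) and chr11:6638650-6638899 (minus strand), in the order printed.
Csn2: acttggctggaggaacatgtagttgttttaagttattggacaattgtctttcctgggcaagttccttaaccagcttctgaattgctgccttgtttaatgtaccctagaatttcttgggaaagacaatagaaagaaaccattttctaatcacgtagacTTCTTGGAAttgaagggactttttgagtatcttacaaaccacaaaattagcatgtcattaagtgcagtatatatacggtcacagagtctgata
Csn1s1: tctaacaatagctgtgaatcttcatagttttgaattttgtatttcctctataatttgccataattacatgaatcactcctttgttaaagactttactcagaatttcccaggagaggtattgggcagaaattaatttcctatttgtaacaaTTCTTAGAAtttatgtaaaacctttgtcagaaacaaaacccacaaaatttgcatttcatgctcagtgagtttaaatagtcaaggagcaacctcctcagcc
Glycam1: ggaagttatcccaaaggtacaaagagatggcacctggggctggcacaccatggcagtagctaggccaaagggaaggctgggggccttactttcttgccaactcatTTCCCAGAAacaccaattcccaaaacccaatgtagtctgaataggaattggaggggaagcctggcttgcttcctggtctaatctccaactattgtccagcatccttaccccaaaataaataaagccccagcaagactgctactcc
Wap: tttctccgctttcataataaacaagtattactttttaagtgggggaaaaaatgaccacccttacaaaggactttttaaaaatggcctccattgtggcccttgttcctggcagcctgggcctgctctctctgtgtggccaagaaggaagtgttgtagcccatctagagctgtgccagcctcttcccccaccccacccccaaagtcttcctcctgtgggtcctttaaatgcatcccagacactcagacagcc
The match begins 93 bases before the start in Csn2, 100 in Csn1s1 and 145 in Glycam1, and the Wap window held none. Of the 8 milk protein genes that rose, 7 had a promoter in the table and 3 of those held the motif, against 8.13% of all 27025 genes in the table. None of the 5 promoters found for the 8 milk protein genes that did not rise held it, nor did any of 16 found for the milk fat genes that rose. These are matches of letters and not measured binding.

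Other secreted products rose less. Pigr, the receptor that carries immunoglobulin A into milk, measured 2530.1, 3033 and 1900.0 in AL and 218, 289 and 432 in LP (8.12-fold, adjusted p = 9.3e-05). Cel, the bile salt stimulated lipase of milk, rose 9.2-fold, with 1976, 3702 and 2521 against 187, 222 and 572 (adjusted p = 0.0011). Lalba, the subunit that turns galactosyltransferase into lactose synthase and a late gene of lactation, measured 220.4, 666 and 221 in AL and 91.7, 146 and 169 in LP and did not pass (log2 difference 1.28, SE 0.51, adjusted p = 0.06), although each AL value lay above each LP value. The milk peroxidase gene Lpo was too dim to be tested, at 99, 215 and 68.6 in AL and 10.9, 17.5 and 9.25 in LP.

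Other milk protein genes were bright in LP and did not pass. Csn3, the kappa-casein that caps micelles, measured 15291, 17092 and 16401 in AL and 17323, 17052 and 16854 in LP (log2 difference -0.07, SE 0.12). Wfdc18, a small secreted relative of Wap, measured 16936, 17659 and 17938 and 16780.1, 16975 and 16248 (0.07, SE 0.12), and the groups differed by less than 1 SE for both genes. Both were among the brightest transcripts of either population, not far below the array maxima of 20616 to 21887, where a difference could go unseen. A dimmer probe set of Csn3 had a difference of 0.27 and did not pass. Muc1, Btn1a1 and Xdh, proteins of the milk fat globule membrane, had differences of -0.13, 0.26 and 0.45 and did not pass. For Btn1a1, dimmer probe sets rose by 2.39 and 1.63. Ltf, the iron-binding lactoferrin, fell from 11079, 10162 and 6943 in LP to 1989, 4558 and 2446 in AL (3.28-fold, adjusted p = 0.005). Mfge8, the lactadherin of the fat globule, fell from 13567, 13611 and 13071 to 8759, 9924 and 9004 (1.46-fold, adjusted p = 0.0015).

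**Figure D2:**
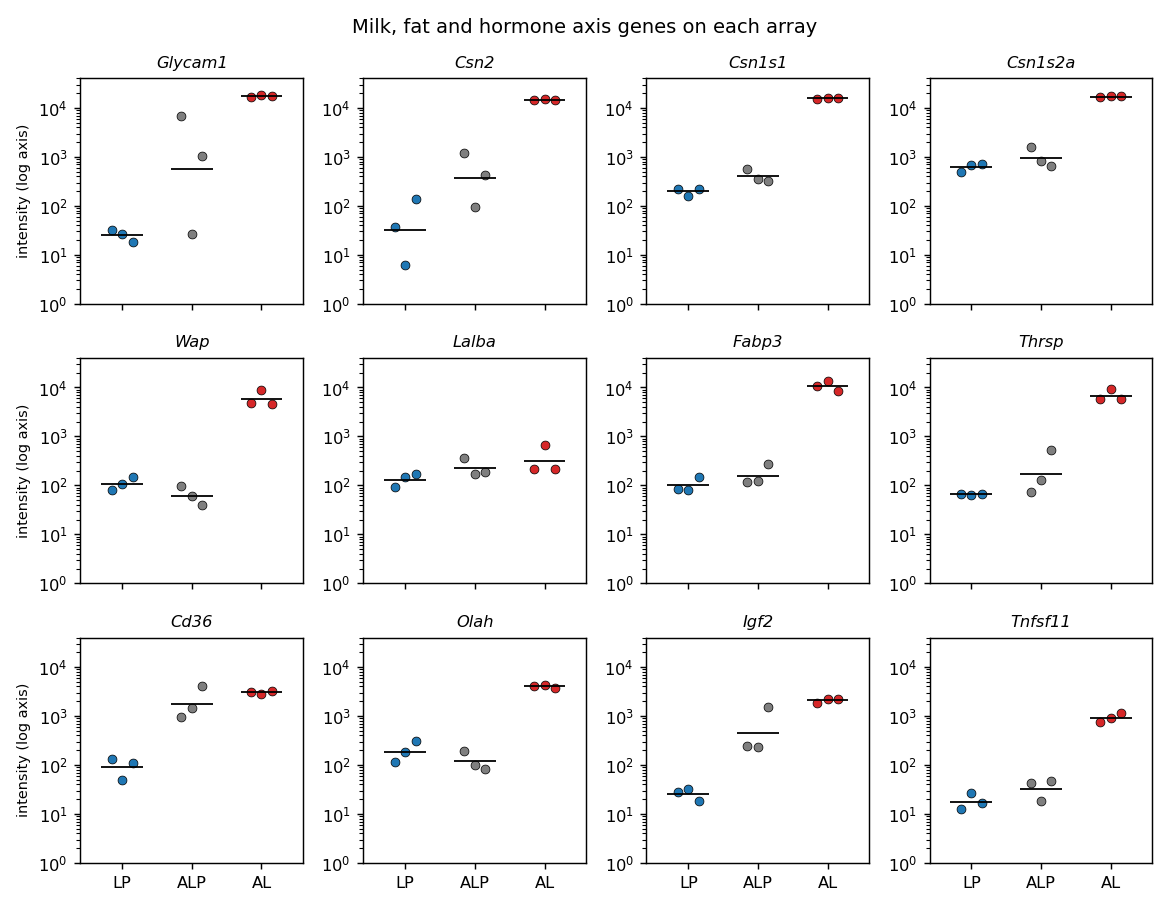
Intensity on a log axis for 12 genes on the 3 LP, 3 ALP and 3 AL arrays, with a bar at the mean of log2 values. Wap, Olah and Tnfsf11 are high on the AL arrays alone, while Cd36 is also high on the ALP arrays.

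The hormone axis of alveologenesis moved unevenly. Of 17 genes tested, 5 rose, 2 fell and 10 did not pass, with a median difference of 0.25. Prlr, the prolactin receptor, was not analysed here. Pgr, the progesterone receptor, fell from 1739, 2249 and 1952 in LP to 529, 427 and 584 in AL (3.87-fold, adjusted p = 0.0018), whereas ALP arrays measured 4535, 6951 and 6116. Esr1, the estrogen receptor, measured 4017, 2898 and 2839 in AL and 3161, 4389 and 4201 in LP and did not pass (log2 difference -0.27, SE 0.28, adjusted p = 0.46). The progesterone effector Tnfsf11 (RANKL) was dim in LP at 12.7, 26.4 and 17 and measured 754, 923 and 1145 in AL, 51.8-fold higher (log2 difference 5.69, SE 0.47, adjusted p = 5.5e-06, 27.5-fold with 16 added). Its receptor gene Tnfrsf11a (RANK) rose 5.93-fold, from 132, 115 and 83.3 to 562, 796 and 589 (adjusted p = 0.00022). The RANKL and RANK transcripts were higher in the samples in which the progesterone receptor transcript was lower. Wnt4, another paracrine target of progesterone, measured 578, 649 and 582 in AL and 161, 396 and 512 in LP and did not pass (adjusted p = 0.061).

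Igf2, a growth factor downstream of prolactin in this tissue, rose 82.8-fold, from 27.5, 32.5 and 18.5 in LP to 1845, 2248 and 2270.4 in AL (adjusted p = 1.6e-05), and measured 248, 235 and 1523 in ALP. Stat5a measured 7401, 7320.1 and 7171 in AL and 4566, 4854 and 4486 in LP (1.58-fold, adjusted p = 0.0011), and Stat5b rose 1.73-fold (adjusted p = 0.039). The kinase gene Jak2 had a difference of -0.20 and did not pass. Among the feedback inhibitors that Stat5 is known to induce, Cish and Socs2 had differences of 0.39 and 0.25 and did not pass, and Socs3 fell 2.04-fold, from 2463, 3414 and 3013 to 1313, 1659 and 1365 (adjusted p = 0.0041). Elf5, a transcription factor required for alveoli, measured 9177, 11066 and 9881 in AL and 5419, 4534 and 4212 in LP. These values did not overlap, yet the fitted difference of 1.09 (SE 0.52) had an adjusted p of 0.11. A fit to the AL and LP arrays alone passed for Elf5 (adjusted p = 0.00095), and its dimmer probe set rose by 2.28. Gata3, the luminal fate regulator, had a difference of 0.01 (SE 0.10). Ccnd1, the cyclin needed for alveolar growth, measured 9828, 8807 and 9981 and 8996, 7995 and 7566 and did not pass (adjusted p = 0.12).

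Genes of milk fat rose far more often than they fell. Of 35 tested, 20 rose, 1 fell and 14 did not pass, with a median difference of 0.74. Fabp3, the fatty acid carrier of the lactating gland, measured 10485, 13791 and 8467 in AL and 84, 79.1 and 151 in LP (107-fold, log2 difference 6.74, SE 0.34, adjusted p = 3.4e-07). Thrsp, a regulator of fatty acid synthesis, measured 5817, 9392 and 5739 and 67.4, 64.8 and 66.1 (103-fold, adjusted p = 3.6e-06). Olah, the thioesterase that releases the medium-chain fatty acids typical of milk, measured 4161, 4376 and 3737 in AL, 115, 184 and 311 in LP and 197, 102 and 83.3 in ALP (21.8-fold over LP, adjusted p = 1.8e-05). The LP values of these 3 genes were at most 311 and the AL values at least 3737.

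The core enzymes of synthesis moved by smaller steps. Acaca, which makes malonyl-CoA, rose 2.32-fold (adjusted p = 2.7e-05), Fasn, the fatty acid synthase, 2.41-fold (adjusted p = 4e-05), and Acly, which supplies cytosolic acetyl-CoA, 1.23-fold (adjusted p = 0.0035). Slc25a1, the mitochondrial citrate carrier, rose 2.35-fold from 580.2, 623 and 560.5 to 1266, 1506 and 1384 (adjusted p = 0.00012), and Srebf1, the regulator of these genes, 2.16-fold from 1735, 2474 and 2388 to 4118, 5707 and 4374 (adjusted p = 0.001). Elongation and desaturation genes Elovl6, Elovl5, Fads1 and Scd2 rose 2.3-fold, 1.46-fold, 1.67-fold and 3.25-fold. Scd1, the paralogous desaturase, was bright in both populations and had a difference of -0.07 (SE 0.19). For triglyceride assembly, Gpam rose 1.7-fold, Gpat4 1.33-fold and Lpin1 4.31-fold, whereas Dgat1 and Dgat2, which add the last acyl chain, had differences of -0.15 and -0.68 and did not pass.

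Uptake genes gave a mixed result. Cd36, a fatty acid translocase, measured 3018, 2777 and 3290.5 in AL, 129, 50 and 109 in LP and 951, 1444 and 4144 in ALP (33.9-fold over LP, adjusted p = 5.5e-05), and Fabp4 rose 7.5-fold from 1023, 418 and 675 to 4633, 5226 and 5018 (adjusted p = 0.00061). Lpl, lipoprotein lipase, measured 9268, 9853 and 9060.4 and 4571, 2624 and 2084 without overlap and did not pass (log2 difference 1.68, SE 1.77). Vldlr, a lipoprotein receptor, fell 1.87-fold (adjusted p = 0.012). Cd36 and Fabp4 are also transcripts of adipocytes and of capillary endothelium. Adipoq, the defining adipocyte transcript, was dim on all these arrays, at 49.2, 37.9 and 43.7 in AL and 45.2, 30.8 and 31 in LP. The adipocyte marker sum over 13 genes was nonetheless higher, at 21385 to 24014 in AL and 9609 to 12407 in LP. Fabp4, Lpl and Pnpla2 (mean 3268 in AL and 1611 in LP) are among the 13, so this sum is no independent result. The endothelial marker sum over 17 genes was 3391 to 4339 in AL and 1804 to 2353 in LP, and the part of such cells in the Cd36 and Fabp4 values was not tested.

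Cholesterol synthesis genes rose in 10 of 19 cases and fell in 1, with a median difference of 0.52. Mvd and Pmvk, of the mevalonate pathway, rose 4.09-fold from 323, 436 and 377 to 1319.7, 1925 and 1424 and 2.07-fold (adjusted p = 6.3e-05 and 0.00049). Fdps, Idi1 and Fdft1, the next steps toward squalene, rose 2.95-fold, 2.06-fold and 1.57-fold. Msmo1, a sterol methyl oxidase of the late pathway, went the other way, from 4969, 4450.2 and 4531 in LP to 1265, 1932 and 1970.4 in AL (2.75-fold lower, adjusted p = 0.002). Hmgcs1 and Srebf2 had differences of 0.00 and -0.14 and did not pass.

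Sugar genes moved less, with 8 of 27 rising and 3 falling against 21.3% and 24.2% of all genes. Pfkl and Pfkp, the liver and platelet forms of phosphofructokinase, went opposite ways. Pfkl rose 3.02-fold from 1186, 946 and 953 to 3099, 3535 and 2702 (adjusted p = 9.3e-05), and Pfkp fell 2.04-fold from 4583, 5604 and 5806 to 3041, 2405 and 2388 (adjusted p = 0.00052). The phosphoglucomutases likewise parted, with Pgm1 1.87-fold higher and Pgm2 2.22-fold lower (adjusted p = 0.0057 and 0.00033). The pentose phosphate genes Taldo1, Pgls and Tkt, which feed the reducing power for fat synthesis, rose 1.76-fold, 1.69-fold and 1.19-fold. Slc2a1, the main glucose transporter, was 1.22-fold lower in AL (adjusted p = 0.0034), and B4galt1, the catalytic part of lactose synthase, had a difference of 0.16 and did not pass.

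Mitochondrial genes shifted by small steps in 1 direction. Of 60 genes of the respiratory chain and ATP synthase, 34 rose and none fell, but none changed by 2-fold, and the median difference was 0.23. Ndufs1 and Ndufa10 of complex I, with 4518, 4547 and 4267 against 2956, 2932 and 2951 and 5731, 6186 and 5603 against 3861, 4017 and 3776, rose 1.51-fold and 1.5-fold (adjusted p = 0.00019 and 0.00033). Uqcrc2 of complex III rose 1.31-fold, Sdhb of complex II 1.3-fold and Atp5c1 of ATP synthase 1.28-fold. The count was 44 with arrays centred on their medians and 21 without AL replicate 2, so it rests on small differences near the threshold. Of 19 genes of the citrate cycle and pyruvate entry, 13 rose and none fell (median 0.32). The pyruvate dehydrogenase parts Dlat, Pdhb, Pdhx and Pdha1 rose 1.9-fold, 1.56-fold, 1.48-fold and 1.32-fold. Pcx, pyruvate carboxylase, which refills oxaloacetate when citrate leaves for fat synthesis, rose 4.78-fold, from 368, 459.9 and 468 to 2047, 2279.9 and 1858 (adjusted p = 0.0089). Cytosolic ribosomal protein genes hardly moved, with 1 of 29 higher and 2 lower.

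**Figure D3:**
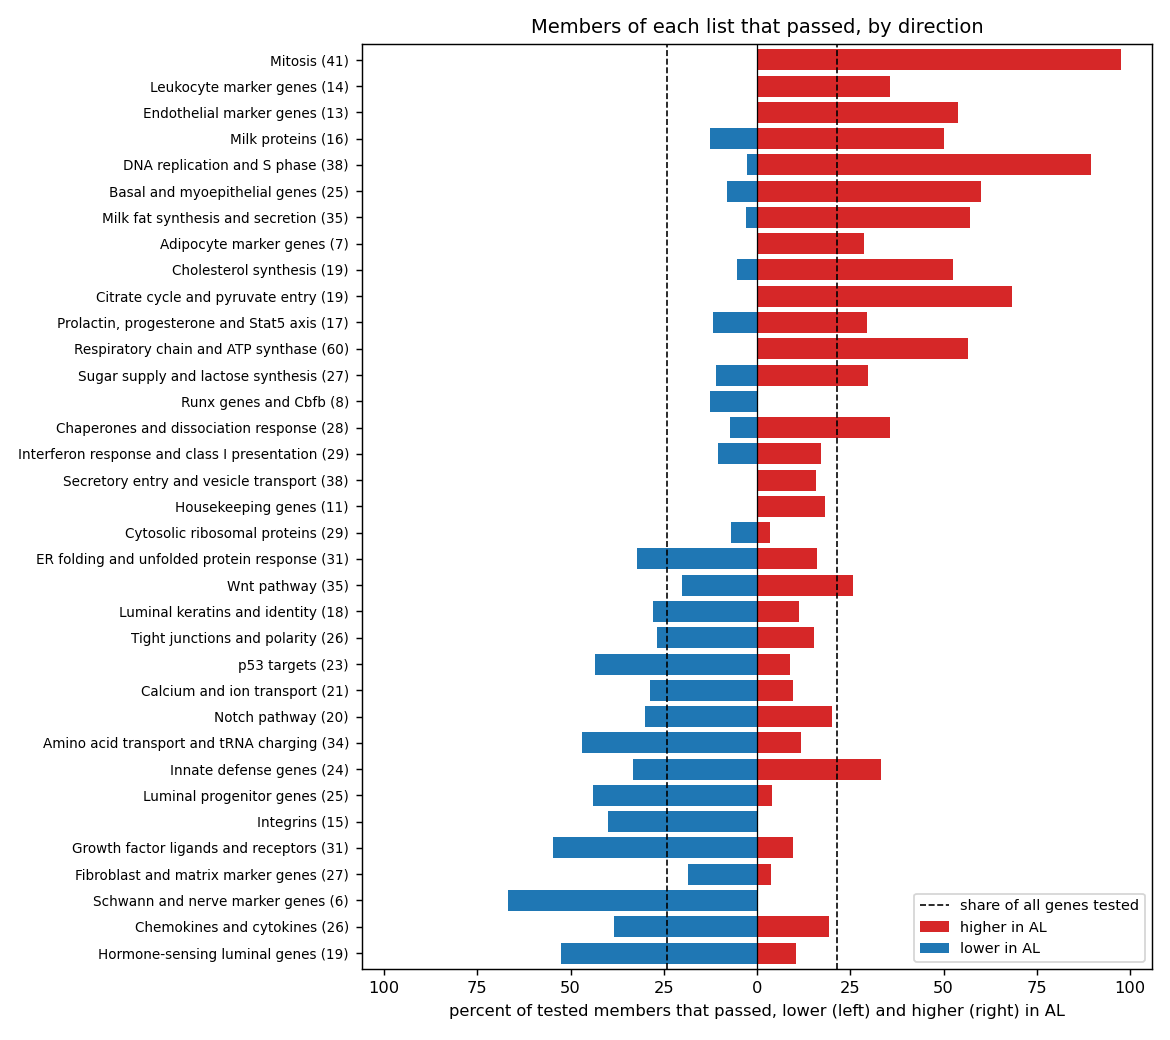
For each list, bars give the percent of tested members that passed as higher (right) or lower (left) in AL, with the number tested in brackets, and dashed lines mark 21.3% and 24.2% of all genes tested. Mitosis and DNA replication reach furthest to the right, while the small Schwann list and the growth factor and hormone-sensing lists reach furthest to the left.

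Cell division genes formed the most uniform of the lists. Of 41 mitosis genes tested, 40 rose, each by at least 2-fold, and Top2a missed the threshold at 7259, 6468 and 6863 against 2014, 2705 and 2547 (adjusted p = 0.066). The median difference was 2.89, and every AL array lay above every LP array for all 41. Bub1b, a kinase of the spindle checkpoint, measured 2314, 2413 and 2371 in AL and 119, 138 and 184 in LP (16.4-fold, log2 difference 4.03, SE 0.41, adjusted p = 2.1e-05). Cenpe, a kinetochore motor, measured 1393, 1176 and 1099 and 45.6, 37.6 and 89.4 (22.7-fold, adjusted p = 4.8e-05). Mki67, the gene of the Ki-67 antigen, measured 5443, 4903 and 4731 and 265, 447 and 469.7 (13.1-fold, adjusted p = 0.0078). Cdk1, the mitotic kinase, measured 6245, 5616 and 5979 and 772, 1071 and 1284 (5.82-fold, adjusted p = 0.016). Cdk1 and Mki67 were thus above the dim range in LP too, and LP replicate 1 had the lowest value of both.

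Of 38 genes of DNA replication and S phase, 34 rose and 1 fell, with a median difference of 1.40. Tk1, thymidine kinase, rose 9.71-fold from 213, 131 and 181 to 1701, 1445 and 1879 (adjusted p = 0.0092). The GINS and Cdc45 parts of the helicase rose 7.07-fold for Gins1 and 6.07-fold for Cdc45, against 3.49-fold for Mcm5 and 1.24-fold for Mcm4. Pold1, the catalytic subunit of polymerase delta, rose 4.02-fold from 929.6, 1029.7 and 982 to 3818, 3944 and 4047 (adjusted p = 8.3e-05), and E2f1 4.54-fold. Pcna and Slbp were bright in both populations and had differences of 0.12 and 0.00, which did not pass. The only gene that fell was Dnmt1, the maintenance DNA methyltransferase, at 8421, 8436 and 8354 in AL and 9389.6, 9812 and 9941 in LP (-0.21, SE 0.07), and with arrays scaled by quantiles or medians no member fell.

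Promoters of cell cycle genes often carry one of 2 elements, the E2F core TTCCCGC and the cell cycle homology region TTTGAA, and both were searched on both strands of the 250 bases before each start. The E2F core was found in 7 of the 28 replication genes that rose and had a promoter in the table, in 1 of 31 such mitosis genes and in 4.38% of all genes. TTTGAA was found in 12 of the 31 mitosis genes, 3 of the 28 replication genes and 18.3% of all genes. Windows of 60 bases are shown for the 4 mitosis genes with a single promoter, a single match and the largest moderated t, with the match in capitals (TTCAAA is the same element on the opposite strand). They lie on GRCm38.p6 at chr19:37376322-37376381 (plus strand), chr6:125191677-125191736 (minus), chr4:118437344-118437403 (minus) and chr5:45669865-45669924 (plus).
Kif11: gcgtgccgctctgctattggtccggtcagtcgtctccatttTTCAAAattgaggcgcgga
Ncapd2: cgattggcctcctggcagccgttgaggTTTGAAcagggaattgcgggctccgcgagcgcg
Cdc20: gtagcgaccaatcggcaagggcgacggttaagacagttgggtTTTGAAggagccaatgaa
Ncapg: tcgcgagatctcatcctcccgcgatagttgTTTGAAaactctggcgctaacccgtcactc
Kif11 and Cdc20, with matches 19 and 18 bases before the start, rose 10-fold and 13.8-fold. Ncapd2 and Ncapg, condensin parts with matches at 123 and 30 bases, rose 6.6-fold and 8.73-fold. Genes without a match in the window rose as well, Bub1b and Cenpe among them.

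Amino acid supply genes fell more often than they rose. Of 34 genes of transport and transfer RNA charging, 16 fell and 4 rose, with a median difference of -0.31, and 8 fell when arrays were centred on their medians. Chac1, a glutathione-degrading enzyme, measured 5764, 5159 and 5805 in LP and 384, 845 and 536 in AL (9.98-fold lower, log2 difference -3.32, SE 0.38, adjusted p = 4.5e-05). Mthfd2, a mitochondrial folate enzyme, fell 4.71-fold from 6122, 5357 and 5043 to 1096, 1124 and 1281 (adjusted p = 1.8e-05). The cationic amino acid transporter Slc7a2 fell 4.35-fold from 2777, 3779 and 3689 to 759, 682 and 909 (adjusted p = 2.2e-05). Asns, asparagine synthetase, and Slc3a2, the heavy chain of several transporters, fell 1.43-fold and 1.48-fold, and 7 transfer RNA synthetase genes fell by 0.23 (Nars) to 0.95 (Cars) on the log2 scale. The genes that rose were Phgdh, the first step of serine synthesis (5454, 8620.0 and 5947 against 1598, 1468 and 2004, 3.9-fold, adjusted p = 5.8e-05), the mitochondrial Shmt2 (1.64-fold) and the transporters Slc6a14 (9.76-fold) and Slc38a3 (4.3-fold).

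Chac1, Asns, Phgdh and Shmt2 are known targets of Atf4, the factor of the integrated stress response, and thus went both ways. A few more targets, chosen after their values were seen and not from a fixed list, are given beside them. Trib3, a pseudokinase, fell 3.36-fold from 4959.5, 4347 and 4653 to 1261, 1692 and 1239 (adjusted p = 0.00021). Sesn2 fell 3.43-fold from 2615, 2483 and 2764 to 788, 889.5 and 635 (adjusted p = 0.0002). Atf4 itself fell by 0.20 on the log2 scale (adjusted p = 0.032), with 11138, 10936 and 11261 in AL and 12666, 12475 and 13188 in LP. Ddit3, another target, rose, at 2771, 3144 and 2862 against 2269.7, 2086 and 2025 (1.38-fold, adjusted p = 0.025), and Psat1 had a difference of 0.32 and did not pass. The ALP arrays varied widely here, with 5105, 3565 and 1625 for Chac1 and 3829, 4063 and 1933 for Trib3.

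Folding and secretion genes had small differences. Of 31 genes of endoplasmic reticulum folding and the unfolded protein response, 5 rose, 10 fell and 16 did not pass. Over all genes 21.3% rose and 24.2% fell. The sign of the median of this list, -0.03, turned with the other scalings. The chaperones Hspa5 and Calr had differences of 0.05 and -0.01, with SEs of 0.07 and 0.07. The sensors Ern1 and Atf6 fell 1.81-fold and 1.62-fold (adjusted p = 0.0013 and 0.00028), and Xbp1, the factor on which both act, had a difference of -0.06 (SE 0.08). Ero1b, which drives disulfide formation, rose 1.78-fold (adjusted p = 0.0021). Of 38 genes of secretory entry and vesicle transport, 6 rose and none fell, at most 1.47-fold (Srp72), and 2 to 11 rose under the alternative settings.

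Progenitor and hormone-sensing genes fell more often than they rose. Of 25 luminal progenitor genes tested, 11 fell and 1 rose, with a median difference of -0.40. The 11 include Itgb3, on whose product LP was sorted. Aldh1a3, the retinaldehyde dehydrogenase of luminal progenitors, fell 3.81-fold from 11896, 12265 and 11258 to 3637, 1924 and 4237 (adjusted p = 0.00028) and its dimmer probe sets by 2.18 and 3.99 on the log2 scale. Itga2, the gene of CD49b, fell 3.51-fold, and Cd55 2.49-fold. The receptor tyrosine kinase Kit, another progenitor marker, measured 4439.5, 4170.1 and 4348 in AL and 4265, 3966 and 3706 in LP, and Sox10, Ehf, Myb and Notch1 also did not pass, with differences of -0.03, 0.12, 0.01 and 0.04. The 1 gene that rose was Lbp, the lipopolysaccharide binding protein, at 3796, 5870.5 and 3994 against 1473, 1617 and 1661 (2.82-fold, adjusted p = 0.012).

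Of 19 hormone-sensing genes, 10 fell and 2 rose, with a median difference of -1.06. Foxa1, the partner factor of the estrogen receptor, fell 3.13-fold from 3221, 3346 and 4406 to 1201, 1125 and 1151 (adjusted p = 0.0079). Prom1 fell 7.53-fold from 2434, 3285 and 3888 to 354, 378 and 545 (adjusted p = 0.00024), and Cxcl15 16.4-fold from 1826, 2229.6 and 2618 to 109, 155 and 143 (adjusted p = 4e-05). The 2 that rose were Tnfsf11 above and Aldh3b2, an aldehyde dehydrogenase (9.87-fold). Cited1 spread over 280.1, 1062 and 2547 in LP and 528, 502 and 771 in AL and did not pass. Several of the largest falls of the whole comparison were in genes brighter still in ML than in LP. Dmbt1, a secreted scavenger protein, measured 1025, 4769 and 1749 in LP, 7.8, 6.71 and 14.4 in AL and 12090.0 on average in ML. Ido1, a tryptophan-degrading enzyme, measured 1300.4, 3722 and 1961, 30.1, 21.2 and 15.1 and 14328 in the same order. Trpc6, Fam25c, Fgb and Ctse had ML means of 4384, 14356, 12396 and 6153 against LP means of 571, 4408, 5213 and 731. LP replicate 1 was lowest of the LP arrays for Dmbt1, Ido1, Trpc6, Fam25c and Fgb, and its hormone-sensing list had a mean log2 intensity of 9.14 against 9.85 in the highest LP array. The sum over 20 such genes was 33634 to 49705 in LP, 17249 to 19462 in AL and 102001 to 107178 in ML. The part of mature luminal cells in the LP samples was not tested. For Ctse a dimmer probe set had a difference of 1.23 that did not pass.

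Other large falls were in genes brighter in LP than in ML. Kcne3, a potassium channel subunit, measured 3937, 4164 and 2607 in LP and 23.4, 19.1 and 27 in AL (152-fold lower, log2 difference -7.25, SE 0.35, adjusted p = 2.9e-07), 89.9-fold with 16 added. It was 1122 on average in ML and 1926, 1934 and 2709.8 in ALP. Papln, a matrix proteoglycan-like protein, fell 42.5-fold from 2461, 2791 and 1934 to 45, 69.1 and 55.7 (adjusted p = 4.9e-07). Snorc, a proteoglycan first known from cartilage, fell 32-fold from 5874, 6004 and 4565 to 119, 154 and 267 (adjusted p = 4.2e-06). Amtn (amelotin) and Gabrg3, a GABA receptor subunit, fell from LP means of 795 and 289 to dim AL means of 9.01 and 9.73. Their folds of 90.3 and 33.4 came to 30.6 and 11.9 with 16 added. No AL value of these genes exceeded 267, and no LP value overlapped them.

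**Figure D4:**
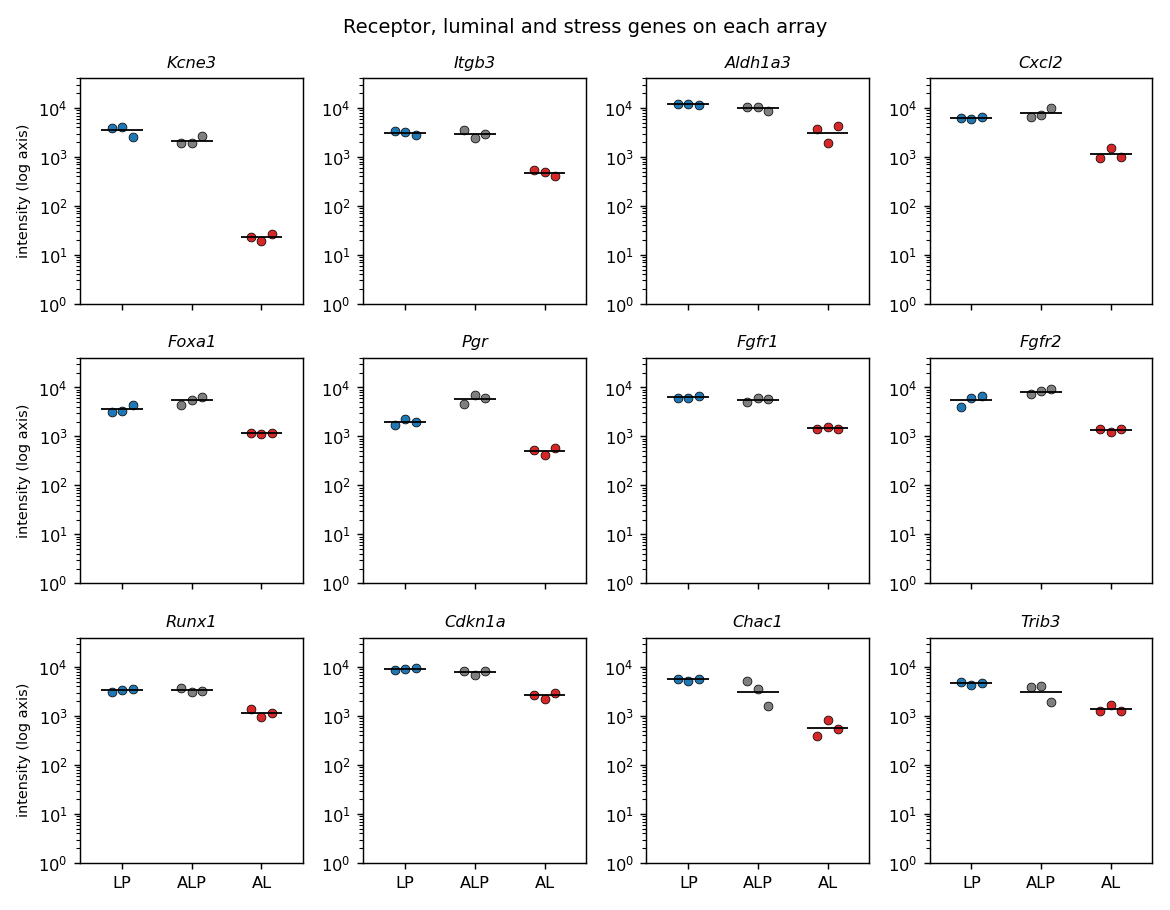
Intensity on a log axis for 12 genes on the 3 LP, 3 ALP and 3 AL arrays, with a bar at the mean of log2 values. AL lies below LP for all 12 and below every ALP array too, with the narrowest gap for Trib3, where ALP replicate 3 measured 1933.

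Secreted immune signals fell more often than they rose. Of 26 chemokine and cytokine genes, 10 fell and 5 rose, with a median difference of -0.90. Cxcl1, Cxcl2 and Cxcl5 are also in the luminal progenitor list above, so the counts of these lists overlap. The neutrophil-attracting chemokines Cxcl1 and Cxcl2 fell 3.21-fold and 5.49-fold, Cxcl2 from 6187, 5876 and 6467 to 934, 1541 and 989 (adjusted p = 6.9e-05). Their relative Cxcl5 fell from 175, 259.7 and 163 to 8.34, 6.38 and 2.83, far in the dim range, so its fold of 36.6 is uncertain and came to 9.71 with 16 added. Csf3, the granulocyte growth factor G-CSF, fell 12.6-fold from 3396, 3341 and 4619 to 199, 319 and 409 (adjusted p = 2.7e-06), and Lif, a Stat3-activating cytokine, 2.8-fold from 8130.1, 8179 and 7774 to 2659.8, 3321 and 2656 (adjusted p = 0.00026). Those that rose were Ccl20, Cxcl10, Cxcl14, Il15 and Tgfb3. Cxcl10, a T cell attractant, measured 4298, 7102 and 5764 in AL and 1373, 1232 and 973 in LP (4.75-fold, adjusted p = 0.0062), and Ccl20 measured 378, 1906 and 634 and 37.8, 62 and 62 (14.6-fold, adjusted p = 0.00017). Csf1 fell 1.89-fold by its brightest probe set, while 2 of its dimmer probe sets rose by 0.84 and 1.16, so its direction depends on the probe set. Chemokines such as Ccl7 are also made by fibroblasts, whose marker sum over 27 genes was 54101 to 74247 in AL and 72359 to 110528 in LP. The same sum was 15142 to 21896 in ML and 55902 to 64882 in MaSC. The part of fibroblasts in these values was not tested.

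Innate defense genes went both ways, with 8 of 24 higher and 8 lower, although 3 were higher without AL replicate 2 and 5 without LP replicate 1. Wfdc2, a secreted protease inhibitor, fell 8.19-fold from 6343, 7148 and 8598 to 662, 994 and 1078 (adjusted p = 6.6e-06), Ptx3 6.14-fold and Chil1, a chitinase-like protein, 3.49-fold from 7893, 8460.2 and 7574 to 2142, 2913 and 1902 (adjusted p = 2.8e-05). Pglyrp1, which binds bacterial peptidoglycan, rose 4.44-fold from 780.5, 924 and 665 to 2721, 4244 and 3632 (adjusted p = 0.00036). The acute-phase genes Saa1 and Saa2 rose 4.14-fold and 4.96-fold, with 1 AL array far above the others (1326, 4619.9 and 1306 for Saa1). Lyz1 and Lyz2 (lysozymes) rose 8.83-fold and 8.86-fold, alongside macrophage transcripts given below, and Lyz2 no longer passed without AL replicate 2 or LP replicate 1 (adjusted p = 0.06 and 0.061). Interferon and antigen presentation genes rose in 5 of 29 cases and fell in 3, both below the shares over all genes. With either of the other scalings 8 rose. The peptide transporter and immunoproteasome genes Tap2, Tap1, Psmb9 and Psmb8 were among those that rose, by 2.46-fold, 1.86-fold, 3.2-fold and 1.64-fold, while the class I heavy chain gene H2-K1 and its partner B2m had differences of 0.10 and 0.09 and did not pass.

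Growth factor receptors and ligands mostly fell. Of 31 genes tested, 17 fell and 3 rose, with a median difference of -0.57. Among receptors, Fgfr1 measured 6137, 6229.5 and 6598 in LP and 1399.8, 1569 and 1398 in AL (4.35-fold lower, log2 difference -2.12, SE 0.11, adjusted p = 4.5e-07). Fgfr2 measured 4074, 6055 and 6557 and 1407, 1221 and 1421 (4.05-fold, adjusted p = 3.5e-06), and Fgfr3 fell 1.46-fold. On the ALP arrays Fgfr1 measured 4952, 6091 and 5729, below the LP range but above every AL value. Fgfr2 measured 7289, 8326 and 9131 there, above the LP range. Egfr fell 1.99-fold from 5433, 5833 and 5535 to 3059.7, 2794 and 2599 (adjusted p = 0.0039), Erbb2 1.71-fold, Met 1.86-fold and Igf1r 3-fold. Erbb3 and Insr had differences of 0.34 and -0.15 and did not pass, and Erbb4, the neuregulin receptor needed for lactation, was too dim to be tested at 17.5, 11.4 and 7.19 in AL.

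Among ligands, Tgfa and Hbegf, which bind the Egf receptor, fell 4.28-fold from 1950.1, 2261 and 2059 to 467, 381 and 650.0 (adjusted p = 1.8e-05) and 2.09-fold from 7591, 7744 and 7918 to 3685, 3626 and 3808 (adjusted p = 8.2e-05). Nrg1, a neuregulin, was dim in AL at 29.6, 32.1 and 46 and measured 378, 565 and 513 in LP (13.6-fold, adjusted p = 0.00023). Fgf1 fell 4.32-fold and Kitl, the ligand of Kit, 2.83-fold from 6278, 5988 and 5339 to 2676, 1672 and 1970.2 (adjusted p = 1.8e-05). The 3 genes that rose all belong to the insulin-like growth factor group, namely Igf2 above, Igfbp2 (10.3-fold) and Igf1 (2.72-fold, with 1914, 1334 and 774 against 849, 406 and 284). Other members of that group, Igf1r, Igf2r, Igfbp5 and Igfbp6, fell. Integrin genes fell in 6 of 15 cases and none rose (median -0.49), with Itgb3, on whose product LP was sorted, counted among the 6. Besides Itgb3, these were Itga2, Itga3, Itga7, Itga9 and Itgav, the partner chain of Itgb3, which fell 1.36-fold from 10719, 10919.7 and 10923 to 7844, 7921 and 8217 (adjusted p = 0.00024). Itgb1, the gene of CD29, measured 2634, 2323 and 2381 and 2743, 2862 and 2794 and did not pass (adjusted p = 0.12).

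Notch and Wnt genes changed by member rather than by pathway. Among 20 Notch genes, 4 rose and 6 fell, close to the shares over all genes. The receptor genes Notch1 and Notch3 did not pass, Notch2 fell 1.49-fold, and Rbpj, the DNA-binding partner of all Notch receptors, fell 1.53-fold from 4121, 4406 and 4209.8 to 2921, 2746 and 2666 (adjusted p = 0.0019). Numb, an inhibitor of Notch, fell 2.96-fold from 5582, 5809 and 5347 to 1962, 1994 and 1705 (adjusted p = 5.6e-07). Of the targets, Hey2 fell 2.88-fold and Hes6 rose 3.24-fold, while Hes1 and Hey1 had differences of 0.52 and -0.68 and did not pass. Among 35 Wnt genes, 9 rose and 7 fell, again close to those shares. The ligand genes Wnt5a and Wnt7b fell 4.98-fold and 12.9-fold, and Wnt6 and the dim Wnt10a rose 2.32-fold and 11.1-fold. Rspo1, a secreted amplifier of Wnt signals, measured 4866, 5019 and 4858 in AL, 175, 271 and 375 in LP and 70.7 on average in MaSC (18.8-fold over LP, adjusted p = 0.00012). Axin2, a common target of the pathway, rose 8.71-fold from 44, 104 and 47.7 to 556, 537 and 482 (adjusted p = 0.00076), and MaSC averaged 507.

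The cell cycle inhibitor Cdkn1a (p21), a target of p53, fell 3.49-fold from 8783, 8928 and 9693 in LP to 2702, 2266 and 2930.5 in AL (log2 difference -1.80, SE 0.13, adjusted p = 2.4e-06), beside the rise of division genes. Of 23 p53 targets, 10 fell and 2 rose, with a median difference of -0.20. Aen, an exonuclease of apoptosis, fell 1.85-fold from 7424, 6925 and 7922 to 3719.6, 4135 and 4172 (adjusted p = 2.4e-05), Rrm2b 2-fold and Eda2r 3.39-fold. Pmaip1 (Noxa), a promoter of apoptosis, went up 3.65-fold from 482, 601 and 671 to 2014, 2022 and 2316 (adjusted p = 0.0022). Mdm2, the inhibitor that p53 induces, fell 1.28-fold by its bright probe set and rose by 0.41 by a dimmer one.

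Runx1, the transcription factor on which the study centred, fell 2.94-fold from 3127, 3443 and 3621 to 1388, 967 and 1146 (adjusted p = 7.2e-06), and its 4 other passing probe sets ran from -0.46 to -1.97 on the log2 scale. ALP arrays measured 3756, 3093 and 3276, inside or near the LP range. Of 8 tested genes of Runx factors, their partner Cbfb and co-repressors, Runx1 alone passed, while 2 of the others rose with either of the other scalings. Cbfb had a difference of -0.27 (SE 0.13, adjusted p = 0.1). Runx3 was too dim to be tested, and Runx2 was not analysed here.

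Transcripts of basal and myoepithelial cells rose more often than they fell. Of 25 tested, 15 rose, 14 of them by at least 2-fold, and 2 fell (median 1.11). Acta2, smooth muscle actin, measured 6946, 8619 and 7717 in AL, 374, 626 and 448 in LP and 16622 on average in MaSC (16.4-fold over LP, adjusted p = 1.9e-05). Mylk, the kinase of smooth muscle contraction, measured 4539, 5131 and 4518 in AL and 131, 98.9 and 205 in LP, with 11944 in MaSC (34.1-fold, adjusted p = 7.9e-06). Oxtr, the oxytocin receptor through which milk is ejected, measured 5034, 5149 and 4367 in AL, 577, 935 and 382 in LP and 7846 in MaSC (8.19-fold, adjusted p = 0.0011). The basal keratins Krt5 and Krt14 measured 749, 1093 and 873 and 3232, 4365 and 3731 in AL, against 69.6, 62.8 and 76.7 and 535, 798 and 789 in LP (12.9-fold and 5.39-fold). In contrast Trp63, the master factor of basal cells, measured 352, 387 and 480.3 in AL and 370.1, 546 and 309.6 in LP (log2 difference 0.02, SE 0.50), Krt17 had a difference of -0.00, and Itga6 and Vim did not pass. Summed over the list, AL measured 68380 to 77519, LP 46923 to 55106, ALP 60539 to 117185 and MaSC 201561 to 211331, so that AL and ALP overlapped. On the ALP arrays Acta2 measured 3931, 3306 and 12157 and Mylk 2901, 1863 and 7986, and neither passed between AL and ALP (adjusted p = 0.33 and 0.47). Oxtr, with a mean of 1112 in ALP, did pass and was 2.62 higher in AL on the log2 scale (adjusted p = 0.0032). No gate on CD24 or CD29, the 2 proteins that part basal from luminal cells, was named for AL, and the part of basal cells in the AL values was not tested. Rspo1, given above, was dim in MaSC.

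Markers of cells outside the epithelium differed by list, beside 21.3% higher and 24.2% lower over all genes. Of 14 leukocyte markers tested, 5 rose and none fell, and 14 more were too dim. The 5 were Cd74, Lyz2, C1qb, H2-Ab1 and H2-Aa, of macrophages and antigen-presenting cells, and Lyz2 measured 729, 1150.0 and 699 in AL and 63.4, 104 and 127 in LP. Ptprc, the gene of the sorted-out lineage marker CD45, was dim at 77.9, 93.6 and 67.2 in AL and 14.8, 27.4 and 27 in LP. The sum over 28 leukocyte markers was 10065 to 13650 in AL and 3045 to 5542 in LP. The count of 5 fell to 0 without AL replicate 2 or LP replicate 1 and reached 13 without the ALP arrays. Of 13 endothelial markers, 7 rose and none fell, Plvap from 91.8, 62.4 and 85.3 to 576, 562 and 704, whereas Pecam1 was dim at 70.5, 71.8 and 103 in AL. Of 27 fibroblast markers, 5 fell and 1 rose, both below the shares over all genes. The median difference of this list was -0.71, with 11 genes lower on every AL array than on every LP array and 2 higher. Pi16, Ogn and Gsn fell 9.8-fold, 3.95-fold and 2.88-fold, and Postn, periostin, rose 4.48-fold. Pi16 and Ogn were dim in ML, with means of 13.8 and 11.1, whereas Gsn averaged 11311 in ML and Postn 11108 in MaSC. The collagen genes Col1a1 and Col3a1 had differences of 0.69 and 0.23 and did not pass. Adipocyte lipid genes Pnpla2 and Fabp4 rose among 7 tested, near the share over all genes. Of 6 Schwann and nerve markers, 4 fell, among them Mbp, whose dimmer probe sets included 2 that rose, by 1.24 and 1.03. None of 5 erythroid markers with a probe set passed the brightness filter. Hbb-b2, a hemoglobin gene outside that list, was uneven in AL at 125, 1262 and 698 and dim in LP at 10.7, 1.31 and 7.65 (adjusted p = 0.013, and 0.052 without LP replicate 2).

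**Figure D5:**
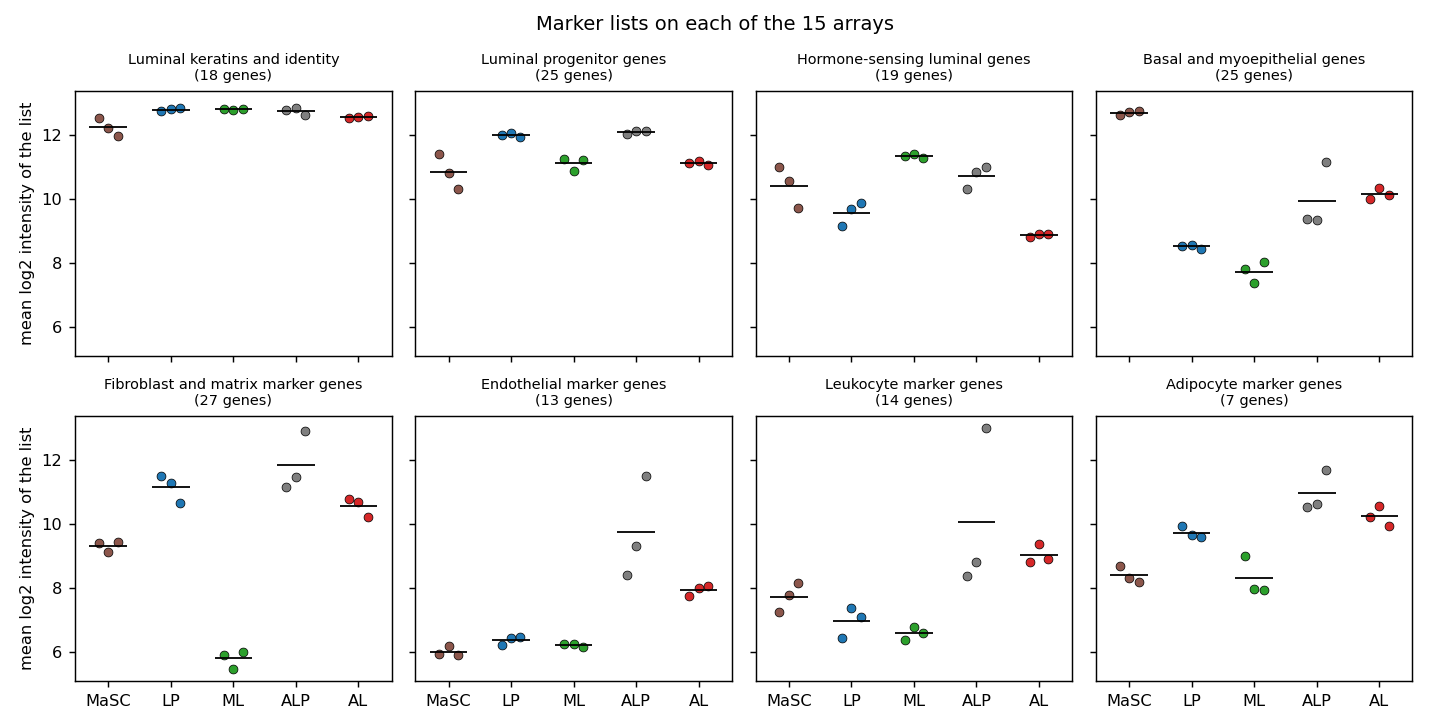
Mean log2 intensity of 8 marker lists on each of the 15 arrays, with a bar at the mean of each population. For luminal keratins AL lies below every LP, ML and ALP array, at 12.53 to 12.58, with MaSC at 11.95 to 12.53. AL lies between LP and MaSC for basal genes, lowest for hormone-sensing genes, and above LP for endothelial and leukocyte markers.

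The marked virgin ALP samples carried the same alleles as AL, which places the comparison of AL with ALP beside that with LP. Over all genes, 18.7% rose and 21.2% fell in AL against ALP, and 3.58% rose and 3.95% fell in ALP against LP. These fits use ALP means that include replicate 3. Correlations of ALP with LP arrays ran from 0.846 to 0.961, so the low shares are not read as likeness. The comparisons share arrays and are given side by side only. Wap was 6.54 higher in AL than in ALP on the log2 scale (adjusted p = 6e-07), and Fabp3 and Thrsp were 6.08 and 5.32 higher. Glycam1 and Csn2 were 4.94 and 5.32 higher (adjusted p = 0.028 and 0.0019). Mki67, on the side of division, was 4.05 higher (adjusted p = 0.0057). Cd36, with a difference of 0.76 between AL and ALP (adjusted p = 0.34), was instead 4.32 higher in ALP than in LP (adjusted p = 0.0029). Among genes that fell, Kcne3, Pgr, Fgfr1, Fgfr2 and Runx1 had differences of -6.56, -3.50, -1.94, -2.61 and -1.54 between AL and ALP (adjusted p = 6e-07, 4.4e-05, 9.4e-07, 9.7e-07 and 8.8e-06).

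Epithelial structure showed few large changes. Of 18 luminal keratin and identity genes, 5 fell and 2 rose, against 24.2% and 21.3% of all genes. Krt7 and Tspan8 fell 2.51-fold and 2.63-fold, Krt7 from 6723, 8049 and 7835 to 2546, 2923 and 3621 (adjusted p = 0.0012), whereas Krt18, Krt19 and Cd24a had differences of -0.08, -0.04 and 0.12 and did not pass. Among 26 tight junction and polarity genes, 4 rose and 7 fell, near the shares over all genes. The count of 7 was 2 with arrays centred on medians, 2 to 5 when 1 array was left out and 13 with the methods' t-test. Cldn8, a barrier-forming claudin, rose 5.94-fold from 591, 427 and 506 to 3358, 2778 and 2866 (adjusted p = 0.025), and the scaffold genes Tjp3 and Cgn rose 3.04-fold and 2.4-fold. Cldn5, the claudin of endothelium, rose 8.91-fold. The largest change of a junction gene lay outside that list. Gjb6, the gap junction protein connexin 30, measured 2859.5, 3463 and 2486 in AL, 5.92, 29.1 and 23.7 in LP and 35.9, 35.5 and 48.7 in ALP (182-fold over LP, 86.1-fold with 16 added, adjusted p = 3.2e-06).

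Of 21 calcium and ion transport genes, 6 fell, close to the 24.2% of all genes, and 2 rose. Atp2c2, a calcium pump of the secretory pathway, rose 3.74-fold from 233, 325 and 501 to 956, 1999 and 1033 (adjusted p = 0.00079), and Slc30a4, a zinc exporter into milk, 1.3-fold. The water pore gene Aqp3 was 4.08-fold lower, from 5009, 5387 and 6634 to 1452, 1463 and 1239 (adjusted p = 3.4e-06), and the sodium channel subunits Scnn1a and Scnn1b 3.38-fold and 3.77-fold lower. Slc5a5, the iodide transporter of the lactating gland, fell 4.13-fold. Atp2b1, a plasma membrane calcium pump, fell 1.68-fold, and its lactation relative Atp2b2 was too dim to be tested at 64.4, 89.7 and 70.6 in AL.

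Among 28 chaperone and dissociation response genes, 10 rose and 2 fell. Hspa1a, an inducible heat shock protein, rose 7.24-fold from 725, 895 and 1332 to 5493, 8752 and 6814 (adjusted p = 2.9e-05), and Nr4a1, an immediate early gene, 3.59-fold from 1439, 1799 and 1685 to 5262, 6352 and 6034 (adjusted p = 0.00034). Fos and Jun, early genes of tissue digestion, were bright in both populations, with differences of 0.14 and -0.13 that did not pass. Hspa1a and Nr4a1 were also high in the virgin marked samples, at 3267, 7274 and 7272 for Hspa1a and 2377, 5162 and 6189 for Nr4a1, and did not pass between AL and ALP (adjusted p = 0.45 and 0.21). The part of such a response in the other differences was not tested. Of 11 housekeeping genes 2 rose, Gusb by 2.76-fold and Sdha by 1.22-fold, and Actb, Hprt, Rplp0 and Eef1a1 had differences within 0.02. Remaining genes among the largest rises were Sapcd2, a regulator of spindle orientation (2121, 2388 and 1928 against 21.1, 44.1 and 19.5), Ptpn22, a lymphocyte phosphatase (584, 805 and 558 against 7.46, 13 and 11), and Selp, the P-selectin of platelets and endothelium, which measured 2313, 3126 and 3762 in AL and 15.4, 11 and 901 in LP, with 1 LP array far above the other two.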

How the data were processed

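RNA of sorted mammary cells was extracted with an RNeasy kit, amplified with NuGEN Ovation V2 and hybridised to Affymetrix Mouse Genome 430 2.0 arrays, 1 array per sample. The authors normalised the 15 arrays with dChip, and the deposited values are linear intensities without a log. The sources used here give neither the dChip version and expression model nor the background handling, baseline array or scan dates. Batches of arrays were therefore not examined. Precision is limited by the 3 arrays per population.

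From these intensities, values below 1 were set to 1 and log2 was taken. A probe set was kept where it exceeded the array's median on at least 3 of 15 arrays, and probe sets of several genes were left out. The kept probe set with the highest mean stood for its gene, giving 12143 genes of 18193. Differences of AL minus LP were fitted with limma 3.58.1 (lmFit and eBayes, R 4.3.3) over all 15 arrays with 1 mean per population and 10 residual degrees of freedom, two-sided, with Benjamini-Hochberg adjustment over all genes and a threshold of 0.05. "Rose" and "fell" are used for genes that passed. The methods' Student's t-test was run as an alternative. The script was tested on simulated data. Figures were drawn with matplotlib 3.10.9.

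The comparison and 36 gene lists were chosen with earlier results of these data known, so lists are described by counts beside those of all genes and were not tested as sets. Some genes are members of several lists, so the counts of lists are not separate results. Named genes were the 12 largest non-overlapping differences in each direction, up to 4 members of each list by moderated t, and the sorting, reporter and regulator genes. Further list members and a few other genes were named for their roles after their values were seen. Gene symbols come from the platform annotation, and promoters from RefSeq on GRCm38.p6. Genes without a probe set of their own, Prlr and Runx2 among them, were not analysed here. For 251 of 5782 genes with several probe sets, these passed in opposite directions.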

Additional observations from a re-analysis of the deposited data

How the results depend on the processing

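The number of genes that differed between AL and LP, 5529, ranged from 4413 to 8058 over 21 alternatives, and the counts of higher, lower, 2-fold higher and 2-fold lower genes stayed within 1.5 times of their values under each. Of 735 counts recomputed, 661 stayed within 1.5 times. Leaving out 1 array gave 4413 to 4720 genes. The methods' t-test gave 7362 genes unadjusted and 6413 after Benjamini-Hochberg, and 5107 of the latter were shared with the reported genes in the same direction. A fit without the MaSC arrays, chosen after seeing the data, gave 5882. The most variable probe set of each gene shared 4670 calls and opposed 113, and the mean of probe sets opposed 22. No other alternative turned the direction of a gene that passed in both. The cause of the changes below was not tested, except that leaving out an array leaves fewer samples.

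Among lists, centring arrays on medians gave 8 higher prolactin axis genes, 8 lower amino acid genes, 2 lower luminal keratins, 2 lower tight junction genes and 8 higher interferon genes, the last also 8 after quantile normalisation. Adding 64 gave 4 higher endothelial markers. Without the filter 3 secretory genes rose. With the mean of probe sets 2 secretory and 3 leukocyte genes rose. With the most variable probe set 8 prolactin axis, 3 secretory and 2 leukocyte genes rose and 6 ER genes fell. In the AL and LP arrays alone 8 prolactin axis, 10 interferon and 12 leukocyte genes rose, and 10 ion transport, 11 tight junction and 11 fibroblast genes fell. Without the ALP arrays 9 interferon and 13 leukocyte genes rose and 10 fibroblast genes fell. With array weights 9 prolactin axis, 10 secretory, 10 interferon and 12 leukocyte genes rose, and 11 integrin, 11 tight junction and 13 fibroblast genes fell. The methods' t-test, unadjusted, gave 8 higher prolactin axis, 11 secretory, 11 interferon and 12 leukocyte genes and 10 lower ion transport, 9 luminal keratin, 11 integrin, 13 tight junction and 10 fibroblast genes. After Benjamini-Hochberg it gave 5 higher innate and 11 leukocyte genes and 10 lower ion transport, 10 integrin, 13 tight junction and 8 fibroblast genes.

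Leaving out 1 array gave 6 to 9 lower ER genes, 2 to 4 higher secretory genes, 21 to 26 higher respiratory genes, 3 to 4 lower luminal keratins, 3 to 7 higher innate genes, 2 to 5 lower tight junction genes, 3 to 5 lower fibroblast genes and 0 to 5 higher leukocyte markers. The respiratory count was 21 without AL replicate 2 and 22 without LP replicate 3, and the innate count was 3 without AL replicate 2 and 5 without LP replicate 1. The ER count was 6 without LP replicate 3, the fibroblast count 3 without LP replicate 1, and the tight junction count 4, 3, 2 and 4 without AL replicates 1 and 2 and LP replicates 2 and 3. The leukocyte count was 0 without AL replicate 2 or LP replicate 1, 2 without AL replicate 1 or LP replicate 3, and 3 without AL replicate 3. Of 152 named genes, Sel1l (0.042), Sec63 (-0.82), Grhl2 (-0.30), Nkd1 (0.35) and Mbp (1.03) turned sign with the most variable probe set, and Mbp (0.42) also with the mean of probe sets. Over the alternatives tried for named genes, 3122 values kept their direction and side of the threshold, 47 no longer passed and 14 passed newly.

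AL and LP share replicate numbers, but no label ties them. The deviations of same-numbered arrays correlated at 0.08, 0.14 and 0.10 across genes, each higher than with any other number, which is a hint from the data and not from the design. With the replicate number as a block, in the AL and LP arrays alone, 6450 genes passed, 3126 higher and 3324 lower, and 5129 were shared with the reported genes, none in the opposite direction. Under the block 2 secretory, 10 interferon and 13 leukocyte genes rose and 10 integrin and 13 fibroblast genes fell.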
